A study of Mus musculus with 5 samples.

Results

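The Hu proteins are the mouse relatives of the fly neuronal protein ELAV, and their 4 genes, Elavl1, Elavl2, Elavl3 and Elavl4, were followed here across every library of an RNA immunoprecipitation experiment. They were found by their gene names among the 49875 gene IDs of the deposited table, and all 4 were among the 12769 genes abundant enough to be tested. The tissue was neocortex (entered as forebrain in the tissue label) of embryos of wild-type genotype at E13.5, a stage at which progenitors produce the first cortical neurons. The libraries were 2 from precipitates with an antibody against eIF4E (biological replicates 1 and 2), 1 from a precipitate with control rabbit immunoglobulin G (IgG), and 2 from Input, the cytoplasmic lysate before precipitation (biological replicates 1 and 2). All came from dissociated cortical cells lysed in a mild detergent, so each is an average over progenitors, neurons and other cells of the dissection, and the labels do not say which embryos or pools stood behind a replicate.

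Hu proteins bind AU-rich and U-rich stretches, mostly in the 3′ ends of mRNAs, through RNA recognition motifs, and are known for stabilising their target mRNAs, raising their translation and changing their splicing. Elavl1 encodes HuR, which is made in most cell types, shuttles between nucleus and cytoplasm and is often used by dividing cells. Elavl2 (HuB), Elavl3 (HuC) and Elavl4 (HuD) encode proteins found mainly in neurons, whose appearance in the cortex goes with the passage from progenitor to neuron. eIF4E recognises the cap at the 5′ end of mRNAs and is the entry point of cap-dependent translation, so the comparison with Input asks how strongly the mRNA of each Hu protein was represented with it, and the comparison with IgG sets that against a precipitate made without the specific antibody.

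Elavl1 lies on chromosome 8 (4284781 to 4325140, GRCm38.p6), Elavl3 on chromosome 9 (22015005 to 22052146), and Elavl2 and Elavl4 on chromosome 4 (91211533 to 91400108 and 110203737 to 110351939). RefSeq lists 1 transcription start for Elavl1, 1 for Elavl3, 6 for Elavl2 and 4 for Elavl4 in the promoter table used. The 120 bases before the outermost start, and before the next one inward where there are several, are shown to describe the genes. They are RefSeq sequence of GRCm38.p6 read 5′ to 3′ on the minus strand, and capitals mark CCAAT or its complement ATTGG and TATAAA or its complement TTTATA.
Elavl1, chr8:4325101-4325220: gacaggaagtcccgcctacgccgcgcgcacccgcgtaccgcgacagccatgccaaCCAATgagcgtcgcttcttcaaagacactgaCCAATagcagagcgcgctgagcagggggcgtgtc
Elavl2, outermost start, chr4:91399985-91400104: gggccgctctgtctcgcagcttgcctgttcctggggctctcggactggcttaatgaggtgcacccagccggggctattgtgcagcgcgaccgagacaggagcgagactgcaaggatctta
Elavl2, next start, chr4:91376497-91376616: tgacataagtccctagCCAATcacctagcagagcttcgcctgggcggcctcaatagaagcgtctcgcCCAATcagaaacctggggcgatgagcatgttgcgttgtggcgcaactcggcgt
Elavl3, chr9:22052024-22052143: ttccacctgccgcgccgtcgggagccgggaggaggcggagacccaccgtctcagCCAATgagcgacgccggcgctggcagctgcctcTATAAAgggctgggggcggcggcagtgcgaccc
Elavl4, outermost start, chr4:110351912-110352031: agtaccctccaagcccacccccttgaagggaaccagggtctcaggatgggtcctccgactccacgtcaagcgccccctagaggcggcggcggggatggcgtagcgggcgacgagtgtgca
Elavl4, next start, chr4:110287528-110287647: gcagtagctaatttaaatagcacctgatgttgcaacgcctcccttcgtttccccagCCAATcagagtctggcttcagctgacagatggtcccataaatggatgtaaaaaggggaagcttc

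In the 250 bases before each start, searched on both strands, CCAAT occurred in 10 of the 12 windows of the family, and in 33.8% of all 32851 windows of the table. Some of the 12 windows overlap and count the same sites again, so they are not independent. The outermost windows of Elavl2 and Elavl4 were the ones without it. TATAAA occurred in 1 of the 12, that of Elavl3, where it began 33 bases before the start, and in 12.4% of all windows. GGGCGG occurred in 6 of the 12 and in 32.7% of all windows, and CANNTG (N is any base) in 7 of the 12 and in 66.2%. These matches describe the letters of the windows, and the libraries hold no measurement of promoter use.

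The values were RSEM abundances per transcript length, either TPM or FPKM, with no counts, so the depth behind them is unknown. Both eIF4E libraries correlated across tested genes at r = 0.989 on the log2 scale and both Input libraries at r = 0.993, whereas IgG correlated at 0.593 to 0.707 with the other 4. Of 5403 genes above 10 in each of those 4, IgG listed 360 at 0. No Hu gene was listed at 0 in any library. The cortical markers Emx1, Emx2, Lhx2, Pax6 and Tbr1 were detected in every library, the lowest being Tbr1 at 16.1 in an Input library. How much RNA a precipitate held in total cannot be read from these values, so higher and lower describe relative abundance, and more cells of a type cannot be told apart from more RNA per cell.

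In Input, Elavl1 was the main Hu mRNA and the neuronal members were minor. Elavl1 measured 243 and 238 in the Input libraries, where it ranked 651 and 671 among the genes tested. Elavl4 came next at 49.4 and 49.5, followed by Elavl3 at 15.1 and 15.2 and Elavl2 at 9.74 and 12.4. Elavl2 and Elavl3 did not overlap, but the gap between their nearest values was smaller than the gap between both Elavl2 values, so these neighbours did not differ beyond their spread.

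Elavl1 and Elavl4 were also the leading members in eIF4E, whereas Elavl1 was the lowest in IgG. In the eIF4E libraries Elavl1 (209 and 217) and Elavl4 (167 and 146) were followed by Elavl2 (82.3 and 73.0) and then Elavl3 (39.5 and 37.5), with no overlap between neighbours. In the IgG library the 3 neuronal members lay close together, with Elavl4 at 142, Elavl2 at 132 and Elavl3 at 125, and Elavl1 was the lowest at 78.6. With 1 IgG library, the order among its 3 neuronal members has no replicate check.

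**Figure D1:**
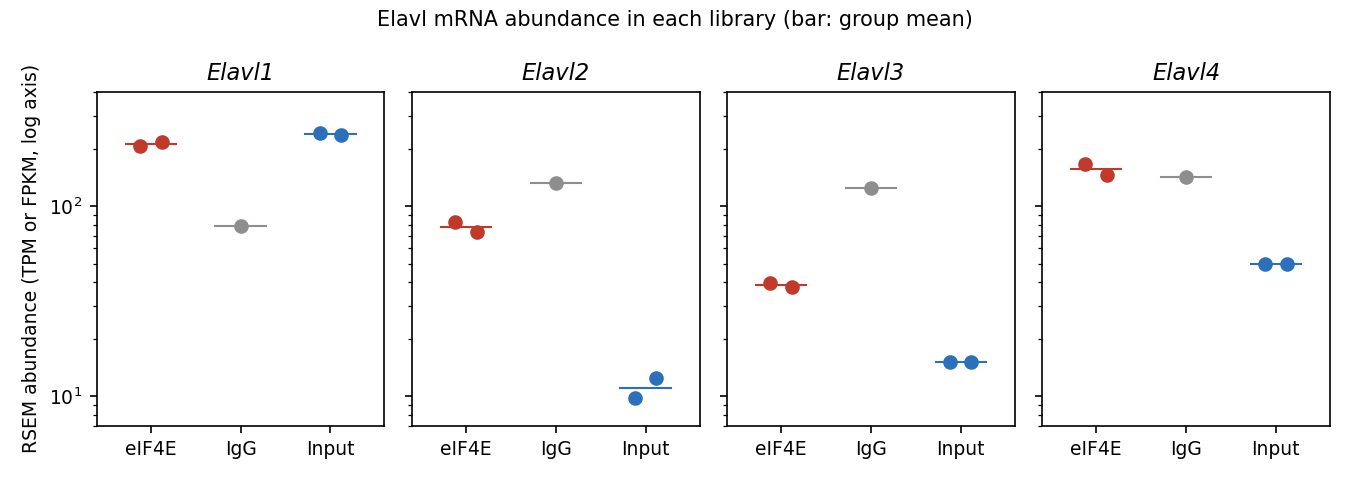
RSEM abundance (TPM or FPKM, log axis) of each Elavl gene by library, with points for single libraries and bars for group means (eIF4E n = 2, IgG n = 1, Input n = 2). Elavl2, Elavl3 and Elavl4 are lowest in Input, and Elavl1 is lowest in IgG at 78.6.

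The share of each gene in the summed Elavl abundance does not depend on a scaling factor per library. Elavl1 made up 41.9% and 45.9% of Elavl mRNA in the eIF4E libraries, 16.4% in IgG, and 76.6% and 75.5% in Input. Its share was thus 32.2 percentage points lower in eIF4E than in Input (43.9 ± 2.79 against 76.0 ± 0.786, SD, n = 2 each), with no overlap. An exact two-sided permutation test of 2 against 2 libraries cannot go below p = 0.333, the value found for each of the 4 genes, so the shares are read against the spread of the pairs.

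Elavl2 gained most in proportion. It held 16.5% and 15.4% of Elavl mRNA in eIF4E, 27.7% in IgG, and 3.07% and 3.96% in Input. Elavl4 held 33.6% and 30.8% in eIF4E, 29.7% in IgG, and 15.6% and 15.7% in Input. Elavl3 held 7.94% and 7.91% in eIF4E, 26.1% in IgG, and 4.75% and 4.82% in Input. In all 3 the eIF4E and Input libraries did not overlap, and among them Elavl3 had the largest gap in percentage points between eIF4E and IgG.

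Among the neuronal members alone, the make-up also differed between groups. Elavl2 was 28.5% and 28.4% of the neuronal sum in eIF4E, 33.2% in IgG, and 13.1% and 16.1% in Input. Elavl3 was 13.7% and 14.6% in eIF4E, 31.2% in IgG, and 20.3% and 19.7% in Input, so its part of the neuronal sum was lower in eIF4E than in Input although its own abundance was higher. Elavl4 was 57.8% and 57.0% in eIF4E, 35.6% in IgG, and 66.6% and 64.2% in Input. The summed abundance of the 3 neuronal genes was 289 and 257 in eIF4E, 399 in IgG, and 74.2 and 77.2 in Input.

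**Figure D2:**
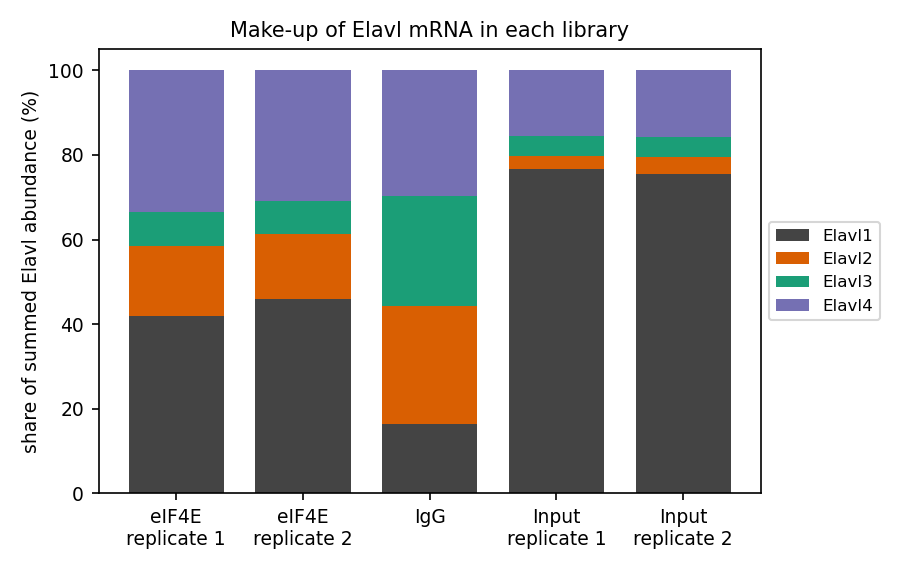
Share of each Elavl gene in the summed Elavl abundance of a library (percent, stacked to the whole), in 2 eIF4E, 1 IgG and 2 Input libraries. Elavl1 takes 41.9% and 45.9% in eIF4E, 16.4% in IgG, and 76.6% and 75.5% in Input.

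Set against Input, the 3 neuronal Hu mRNAs were higher in the eIF4E precipitate. The test was limma on log2(value + 1) over all genes tested, two-sided, with Benjamini-Hochberg adjustment, and folds are on that scale. All 4 Elavl genes passed an adjusted p of 0.05, as did 73.9% of all genes, with 43.3% higher in eIF4E than in Input and 30.6% lower, so a rise on its own was common. Of the genes past the threshold 58.6% were higher, a share that was 45.7% with median-of-ratios scaling, 45.5% with quantile normalization and 70.3% with library totals made equal. Libraries that did not overlap were likewise common, at 50.3% of genes for higher and 37.6% for lower.

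Elavl2, the member linked to the earliest steps of neuronal differentiation, rose furthest. It averaged 77.7 ± 6.63 in eIF4E and 11.1 ± 1.92 in Input (SD, n = 2 each), a 6.53-fold rise (log2 2.71, SE 0.13, limma adjusted p = 1.3e-04). That fold lay at percentile 98.0 of all genes tested. The difference exceeded the spread of either pair many times over, although the Input pair of Elavl2 differed by 0.32 on the log2 scale, more than 88.6% of genes did between both Input libraries.

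Elavl4, which encodes the HuD protein of differentiating and mature neurons, was 3.12-fold higher in eIF4E (157 ± 15.0 against 49.5 ± 0.0849, SD, n = 2 each). Its log2 change was 1.64 (SE 0.08, limma adjusted p = 1.2e-04), at percentile 88.9. Elavl3, which encodes the widely used neuronal marker HuC, was 2.45-fold higher (38.5 ± 1.46 against 15.1 ± 0.0636, SD, n = 2 each; log2 1.29, SE 0.06, limma adjusted p = 1.2e-04), at percentile 83.0. The log2 intervals of the 3 genes at 95% were 2.36 to 3.06 for Elavl2, 1.43 to 1.85 for Elavl4 and 1.14 to 1.45 for Elavl3, so that of Elavl2 lay apart from the others. All 3 remained higher, past the threshold, under each of the 14 alternatives computed.

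Elavl1 stayed near its Input level in the deposited values, and the size and direction of its difference depended on the scaling. It averaged 213 ± 6.17 in eIF4E and 240 ± 3.81 in Input (SD, n = 2 each), with no overlap, or 0.887 of Input (log2 -0.17, SE 0.05, limma adjusted p = 0.0221). This call did not hold up under every alternative. The direction turned with quantile normalization (log2 0.04) and with library totals made equal (log2 0.07). With median-of-ratios scaling the fall was larger (log2 -0.50, limma adjusted p = 8.0e-04). Limma no longer passed it without the variance trend (adjusted p = 0.0799). The change of Elavl1 was log2 -0.14 without eIF4E replicate 1, -0.16 without Input replicate 1 and -0.19 without Input replicate 2. Its fold lay at percentile 37.2 of all genes, whose median was log2 0.16.

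The lone IgG library also differed from Input in all 4 Elavl genes. Elavl2 was 11.1-fold, Elavl3 7.80-fold and Elavl4 2.84-fold higher in IgG than in Input, and Elavl1 was 0.33 of Input. The limma adjusted p was 4.0e-05 for Elavl2, 1.0e-05 for Elavl3, 1.0e-04 for Elavl4 and 1.9e-05 for Elavl1, with the IgG library assumed to vary like the others. Across all genes 88.1% passed, and 37.8% were higher and 50.3% lower in IgG than in Input. Elavl2 and Elavl3 lay at percentiles 95.5 and 92.3 of the IgG folds, Elavl4 at 77.7 and Elavl1 at 26.8. The comparisons of eIF4E and of IgG with Input share the Input libraries, so their likeness is given as values only.

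Against IgG the members split 3 ways. Elavl1 was 2.69-fold higher in eIF4E (209 and 217 against 78.6; log2 1.43, SE 0.06, limma adjusted p = 4.1e-05), Elavl3 was lower at 0.314 of IgG (39.5 and 37.5 against 125; log2 -1.67, SE 0.07, adjusted p = 5.3e-05), and Elavl2 was lower at 0.588 (82.3 and 73.0 against 132; log2 -0.77, SE 0.16, adjusted p = 0.00896). Over all genes 83.8% passed, 53.1% were higher and 30.6% lower in eIF4E than in IgG, and the median was log2 0.55. Of the genes past the threshold 63.4% were higher, and 48.8% with quantile normalization.

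Elavl4 did not pass against IgG (167 and 146 against 142; 1.1-fold, log2 0.14, 95% interval -0.11 to 0.39, limma adjusted p = 0.234). Both eIF4E values lay above IgG as deposited, and the order turned with quantile normalization (log2 -0.37, adjusted p = 0.014) and with library totals made equal (log2 -0.21, adjusted p = 0.0803). Without eIF4E replicate 2 it passed as higher (log2 0.23, adjusted p = 0.0264). Its place against IgG thus rests on the scaling and on 1 library. The directions of Elavl1, Elavl2 and Elavl3 against IgG, and their calls, held under all 12 alternatives. Changing the filter or the variance trend, or leaving out an Input library, cannot move a fold against IgG. Those alternatives bear on the call alone, and all 12 use the same IgG library.

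**Figure D3:**
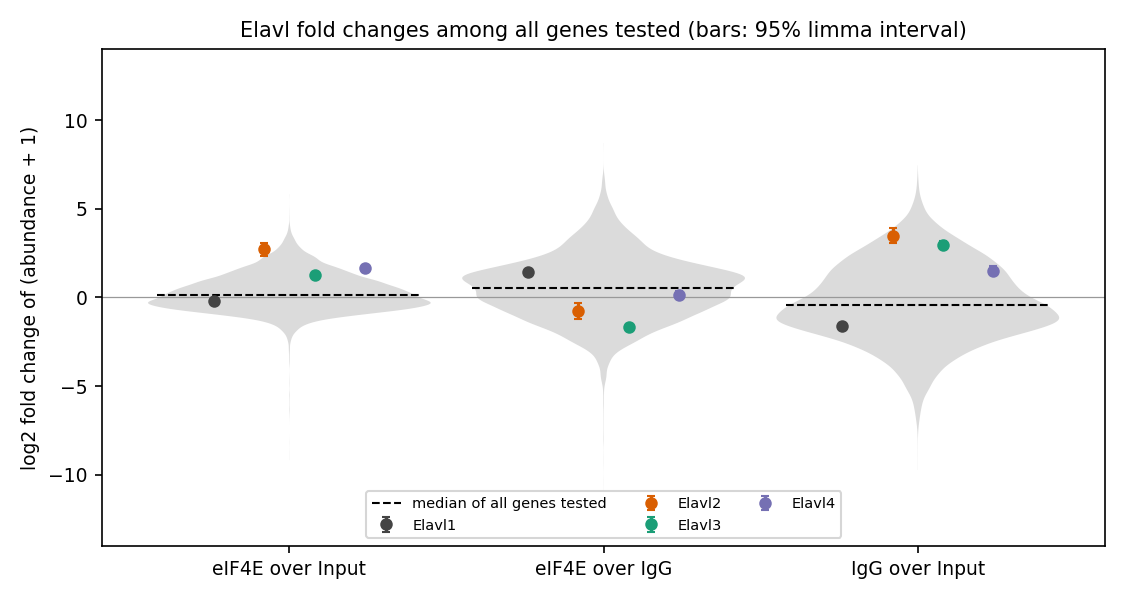
Log2 fold change of (abundance + 1) of each Elavl gene (points, with 95% limma intervals) over the distribution of all 12769 genes tested (grey), for eIF4E over Input, eIF4E over IgG and IgG over Input. Elavl2 stands at 2.71, -0.77 and 3.47, and Elavl1 at -0.17, 1.43 and -1.60.

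Elavl2 and Elavl3 were thus higher in eIF4E than in Input and lower than in IgG, a combination found for 16.8% of all genes tested. Elavl1 had the opposite combination, lower than Input and higher than IgG, as 18.6% of genes did, with the reservation given above for its difference from Input. Higher than both Input and IgG past the threshold were 19.8% of genes, and no Hu gene with limma and all libraries.

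Between both eIF4E libraries the log2 values differed by 0.06 for Elavl1, 0.08 for Elavl3, 0.17 for Elavl2 and 0.19 for Elavl4. Between both Input libraries they differed by 0.0034 for Elavl4, 0.01 for Elavl3, 0.03 for Elavl1 and 0.32 for Elavl2. The eIF4E difference of Elavl4 was larger than that of 71.8% of genes and that of Elavl2 larger than that of 67.5%, against 37.0% for Elavl3 and 29.1% for Elavl1.

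Likeness of pattern was measured as the root mean square difference of log2(value + 1) over the 5 libraries, after subtracting each gene's mean, among 6134 named genes above the median abundance. Elavl1 was most like Adrm1, a ubiquitin receptor of the proteasome, Zfyve21 and Def8, at 0.0259 to 0.0297. Elavl3 was most like Mapk8, which encodes the kinase JNK1, Sptan1, the brain form of alpha spectrin, and Macir, at 0.0549 to 0.078. Elavl4 was most like Ptcd3, a mitochondrial ribosome-associated protein, Pdss1, an enzyme of coenzyme Q synthesis, and Opa1, which acts in mitochondrial fusion, at 0.0705 to 0.0771.

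Elavl2 was most like Zfp317, Ufsp2 and Kif11, a kinesin of the mitotic spindle, at 0.116 to 0.144. Zfp317 for instance measured 20.7 and 22.1 in eIF4E, 33.6 in IgG, and 1.76 and 2.36 in Input. By the same measure the family members were further from each other: 0.646 between Elavl2 and Elavl3, 0.672 between Elavl3 and Elavl4, 0.754 between Elavl2 and Elavl4, and 1.20 to 1.95 between Elavl1 and the others. The nearest genes were picked out of 6134 and the relatives were not, so the distances of both kinds are given as a description.

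**Figure D4:**
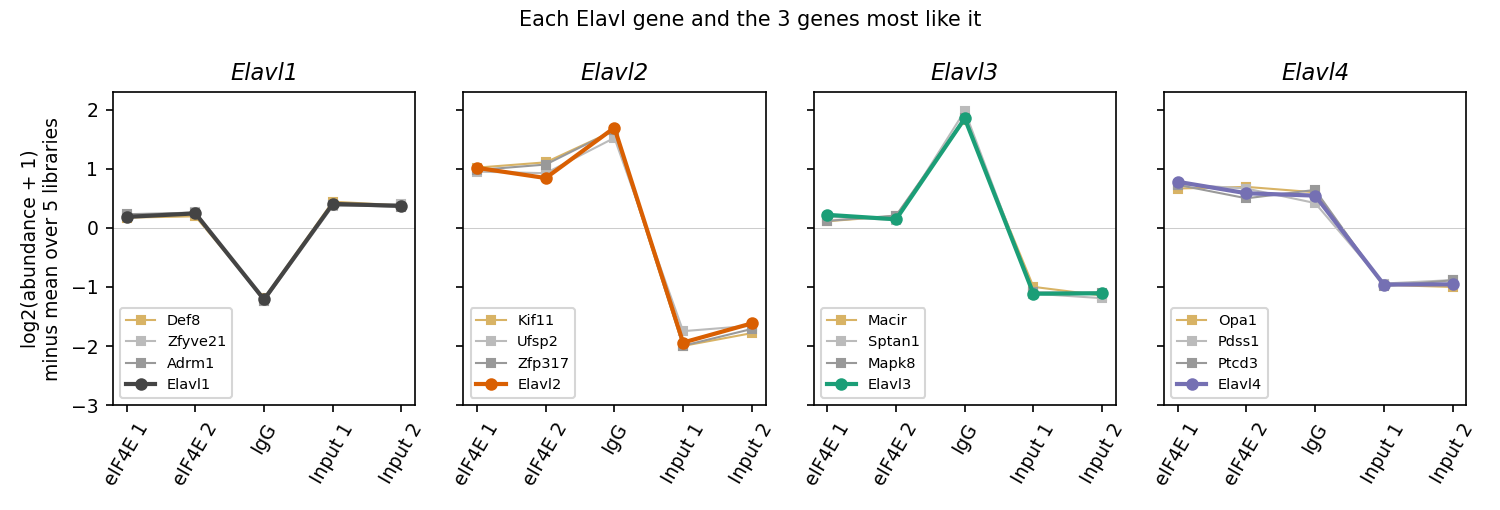
Log2(abundance + 1) minus the gene's mean over 5 libraries, for each Elavl gene (thick line) and the 3 genes most like it, in the order eIF4E replicates 1 and 2, IgG, Input replicates 1 and 2. Elavl1 dips in IgG, Elavl3 peaks there, and Elavl2 and Elavl4 are low in Input.

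Other proteins that act on the same kind of mRNA elements, many by promoting decay where Hu proteins stabilise, were set beside the family. Of 12 such genes 8 were higher and 3 lower in eIF4E than in Input, where 43.3% and 30.6% of all genes were, with a median of log2 1.02 against 0.16 for all genes. Rc3h1, the decay factor roquin-1, rose 4.45-fold (5.20 ± 0.127 against 0.395 ± 0.0354, SD, n = 2 each). Ybx1, a cold shock domain protein, fell to 0.413 of Input and Zfp36, the decay factor tristetraprolin, to 0.565. Against IgG 2 of the 12 were higher and 9 lower in eIF4E, where 53.1% and 30.6% of all genes were. In IgG 9 were higher and 2 lower than in Input, beside 37.8% and 50.3% of all genes, with a median of log2 1.65 against -0.43 for all genes.

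The Celf genes, whose proteins are related to the Hu proteins by their RNA recognition motifs, went both ways. Of the 6, Celf2 (3.72-fold), Celf4 (2.53-fold) and Celf1 were higher in eIF4E than in Input, Celf5 (0.631) and Celf3 (0.842) were lower, and Celf6 did not pass. Their median was log2 0.09, against 0.16 for all genes, of which 43.3% were higher and 30.6% lower. The Celf counts were 2 higher and 2 lower with median-of-ratios scaling and with quantile normalization, and the call for Celf3 was lost with library totals made equal (log2 -0.01, adjusted p = 0.876). Against IgG 4 of the 6 were lower in eIF4E, as 30.6% of all genes were, and the others did not pass. The lower ones included Celf2 (114 and 120 against 233) and Celf4 (52.3 and 52.9 against 93.3). Celf1, Celf2 and Celf4 shared with Elavl2 and Elavl3 the order of IgG above eIF4E above Input. Past the threshold in both eIF4E comparisons, this order was found for 16.8% of all genes tested.

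Genes of proteins that bind, carry or modify Hu proteins were split. Of 16 tested, 8 were higher and 4 lower in eIF4E than in Input (median log2 0.40), near the 43.3% and 30.6% of all genes, and the counts became 4 and 7 with median-of-ratios scaling. Map1b, whose light chain binds HuD, rose 6.80-fold (1885 ± 18.6 against 276 ± 0.0283, SD, n = 2 each), and Xpo1, an exportin that HuR uses, rose 4.89-fold. Tnpo2, an importin of HuR, fell to 0.443 and Cdk1, a kinase that phosphorylates HuR, to 0.695. Against IgG 7 were higher and 7 lower in eIF4E, beside 53.1% and 30.6% of all genes. Map1b was above IgG (1.62-fold) but turned with quantile normalization (log2 -0.10), whereas Xpo1 (17.4 and 18.8 against 35.6) and Tnpo2 (12.5 and 9.0 against 227) were below it.

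The mRNAs described elsewhere as targets of Hu proteins showed no common direction. Of 18 tested targets of the neuronal members, 12 were higher and 5 lower in eIF4E than in Input (median log2 0.58, against 0.16 for all genes, of which 43.3% were higher and 30.6% lower), with the ankyrin gene Ank3 at 5.87-fold and the chromatin organiser Satb1 at 5.79-fold, and with the kinase gene Camk2a at 0.467 and the glucose transporter Slc2a1 at 0.363. Of 19 tested targets of HuR, 12 were higher and 5 lower (median log2 0.38, beside the same values for all genes), with Hif1a at 5.04-fold and the nucleolin gene Ncl at 5.01-fold, and with Actb at 0.441 and the amino acid transporter Slc7a1 at 0.335. Against IgG 9 of 18 and 10 of 19 were higher in eIF4E, and 7 of each were lower, beside 53.1% and 30.6% of all genes. With median-of-ratios scaling the counts against Input were 9 higher and 6 lower, and 8 higher and 5 lower. In IgG against Input 9 and 8 were higher, and 6 and 8 lower, beside 37.8% higher and 50.3% lower of all genes.

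**Figure D5:**
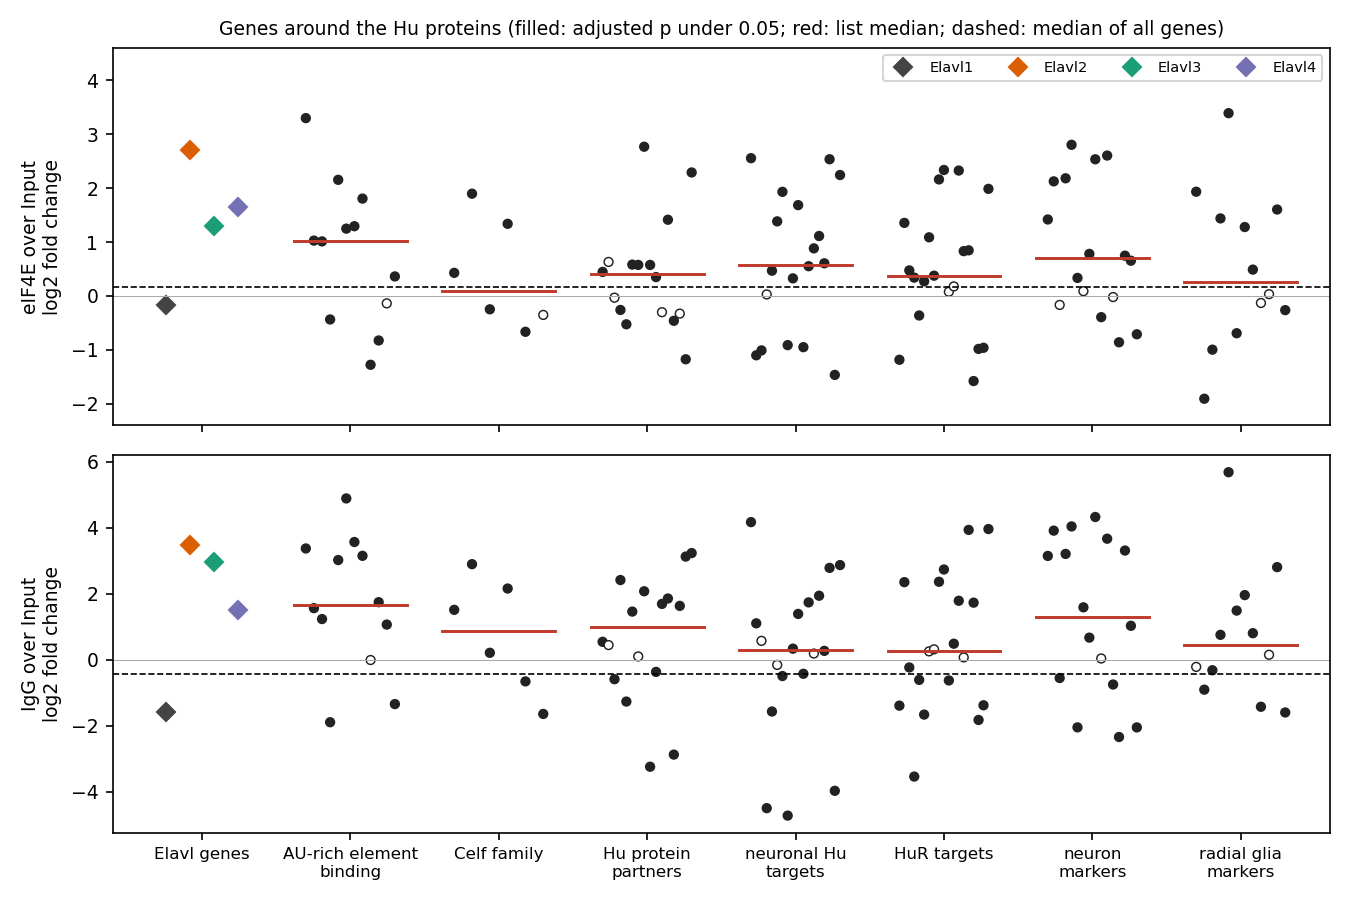
Log2 fold change over Input in eIF4E (upper panel) and in the lone IgG library (lower panel) for the Elavl genes, genes around the Hu proteins and 2 marker lists, where filled points have an adjusted p under 0.05, red bars are list medians and dashed lines the median of all genes. Elavl2 stands at 2.71 and 3.47, and Elavl1 at -0.17 and -1.60.

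Of the 16 neuron markers, which hold no Elavl gene, 10 were higher and 3 lower in eIF4E than in Input, with a median of log2 0.70 against 0.16 for all genes. Their summed abundance, which a few abundant genes carry, was 2101 and 2069 in eIF4E, 2101 in IgG, and 2257 and 2272 in Input. Among them Myt1l (6.97-fold) and Sox11 (6.07-fold) rose over Input as Elavl2 did, whereas the abundant Tubb3 (0.611) and Stmn3 (0.551) fell. Against IgG 5 of the 16 were higher and 10 lower in eIF4E, beside 53.1% and 30.6% of all genes. Myt1l (0.425 of IgG) and Sox11 (0.479) were lower there, and Tubb3 (2.55-fold) and Stmn3 (2.81-fold) higher. In IgG 10 were higher and 5 lower than in Input, beside 37.8% and 50.3% of all genes. The 12 radial glia markers summed to 1683 and 1562 in eIF4E, 1551 in IgG, and 1792 and 1822 in Input, with 6 higher and 4 lower. Marker sums are not scaled to the library total, which was lowest in IgG (560076, against 838759 and 848550 in Input). The neuron and radial glia sums in IgG lay below Input by a smaller factor than this total did. Their order between IgG and Input thus turns with library totals made equal. The 8 markers of intermediate progenitors, in which Elavl2 is also expressed, summed to 1168 and 1210 in eIF4E, 876 in IgG, and 808 and 798 in Input, with 6 higher and 1 lower. A few abundant genes carry this sum too. The 8 interneuron markers summed to between 59.5 and 71.6 in all 5 libraries, although 5 were higher and 3 lower in eIF4E than in Input. Some of these calls were lost with other scalings. Over all genes 43.3% were higher and 30.6% lower in eIF4E than in Input.

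Markers of blood, vessel, immune and meningeal cells summed to less in eIF4E than in Input. So did the neuron and radial glia markers above, whereas the neuronal Hu genes were higher. The library totals were lower in eIF4E (718857 and 708778) than in Input (838759 and 848550) as well. The neuron and radial glia sums were lower by a smaller factor than the totals, so their order turns with library totals made equal. The erythroid sum was 5579 and 4267 in eIF4E, 2300 in IgG, and 15620 and 17020 in Input, with all 6 tested markers lower in eIF4E. The endothelial and mural sum was 60.5 in both eIF4E libraries, 20.6 in IgG, and 130 and 138 in Input, with 4 of 8 lower and 1 higher, and Cldn5, Flt1 and Pdgfrb at 0 in IgG. The microglial sum was 24.2 and 19.6 in eIF4E, 22.0 in IgG, and 49.6 and 58.7 in Input, with 4 of 6 tested lower and Aif1, C1qa, C1qc, Csf1r and Ptprc at 0 in IgG. The meningeal sum was 95.2 and 91.2 in eIF4E, 271 in IgG, and 134 and 115 in Input, with 3 of 5 tested lower and 2 higher, and Dcn, Dpt, Foxc1 and Lum at 0 in IgG. The part of these cells in the Hu values was not tested.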

How the data were processed

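Gene-level RNA abundances from 5 libraries (2 eIF4E, 1 IgG, 2 Input; groups from the sample titles) were used. Per the labels' protocols, libraries were made by Smart-seq2, which selects poly(A) RNA and marks neither strand nor molecules. Per the submitters' processing notes, the reads were processed with STAR 2.7.9a and RSEM 1.3.3, on mm10. The deposited values form a signal that is never negative and not on a log scale. The header does not say whether it is TPM or FPKM, so levels between libraries depend on 1 factor per library. RSEM divides reads that match several genes. The annotation version was not given in the sources used here, nor were options or strand setting.

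Of 50161 rows, 286 exact repeats were dropped. Genes that reached 1 in 2 or more of the 5 libraries were tested with limma 3.58.1 (R 4.3.3) on log2(value + 1), 3 groups, trended eBayes, two-sided, threshold 0.05 after Benjamini-Hochberg adjustment. The fit has 2 residual degrees of freedom. Nothing says which animals the replicates came from, so p-values reflect only how these libraries spread. Outside the family, the text draws its names from the members with the 2 highest and 2 lowest folds past the threshold against Input in a list, the 3 genes most like each Elavl gene, and a few others named after their values were seen (Celf1, Celf6, Lhx2, Tbr1 and markers at 0); marker lists other than neuron and cortex are given as counts and sums. A gene that this rule selects is not reported here. The members and lists were chosen with earlier results of these data known. Promoter windows came from RefSeq by symbol, for all 4 genes.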

Additional observations from a re-analysis of the deposited data

How the results depend on the processing

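Alternatives changed the pseudocount, the filter, the scaling between libraries, the variance trend, the replicate block and the libraries used. Changes of the filter, the variance trend and the replicate block leave the folds themselves as they are, so they bear on calls alone. Of the 12 differences of the Elavl genes, those of Elavl2 and Elavl3 in the 3 comparisons, of Elavl1 in both comparisons with IgG, and of Elavl4 over Input in eIF4E and in IgG kept direction and call in every alternative computed. The difference of Elavl1 between eIF4E and Input turned to log2 0.0373 (quantile normalization, limma adjusted p = 0.52) and 0.0665 (same total, adjusted p = 0.313). With median-of-ratios scaling it was log2 -0.50 (limma adjusted p = 8.0e-04). Its call was lost at log2 -0.17 without the variance trend (adjusted p = 0.0799). Leaving out 1 library each gave -0.20 to -0.14 (adjusted p = 0.028 to 0.139). Elavl4 against IgG turned to -0.37 (quantile) and -0.21 (same total), and lay at 0.0399 to 0.23 with 1 library left out. The share of Elavl3 was 3.14 percentage points higher in eIF4E than in Input, and 3.03 with 1 added to each value. The causes were not tested. The labels give eIF4E and Input the same replicate numbers without saying what they share, and deviations of same-numbered libraries correlated at 0.0236. With the replicate block, Elavl1 between eIF4E and Input stayed at log2 -0.17 with adjusted p = 0.0698, and no other Elavl call changed. The median of all genes in eIF4E against Input was log2 0.16, and -0.11 with median-of-ratios scaling, -0.11 with quantile normalization and 0.36 with the same total. Relative to it, Elavl1 stood at -0.33, -0.38, 0.15 and -0.29. Depth is unknown, and IgG has 1 library, so no interval covers the error of that precipitate.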
